A study of Mus musculus with 8 samples.

Results

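The nuclear genes of oxidative phosphorylation were followed across 3 thymic natural killer T (NKT) cell subsets of Ezh2-KO and WT mice. They were taken as all protein-coding genes whose symbol begins with Nduf, Sdh, Uqcr, Cox4, Cox5, Cox6, Cox7, Cox8 or Atp5, with pseudogenes left out. This gave 99 of the 27179 genes counted. They comprised 38 genes of complex I, 4 of complex II, 8 of complex III, 19 of complex IV, 17 of complex V, and 13 assembly factors and related genes. Ndufa4, once assigned to complex I, was placed with complex IV.

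RNA of NKT cells sorted by CD44 and NK1.1 from the thymus of C57BL/6 mice was sequenced in 8 libraries, 4 Ezh2-KO and 4 WT. Each genotype gave 1 library of CD44- NK1.1- cells, 2 biological replicates of CD44+ NK1.1- cells and 1 library of CD44+ NK1.1+ cells. These subsets are usually taken as successive stages of NKT cell maturation in the thymus. Ezh2 is the catalytic subunit of the Polycomb complex that methylates lysine 27 of histone H3. The sources used here do not give the driver of the deletion, the age of the mice or whether animals were pooled.

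Oxidative phosphorylation makes ATP in the inner mitochondrial membrane. Complex I, the NADH dehydrogenase, and complex II, the succinate dehydrogenase, feed electrons to coenzyme Q. Complex III passes them to cytochrome c, and complex IV, the cytochrome c oxidase, hands them to oxygen. Complex V, the ATP synthase, uses the proton gradient that complexes I, III and IV build. Most subunits are encoded in the nucleus and a small set in mitochondrial DNA, so both genomes contribute to every complex but complex II. T cells rely on this pathway for survival at rest and raise both it and glycolysis when they divide.

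Libraries held 20308745 to 22995090 counts, and the 99 genes took 0.917% to 1.235% of them. A gene without reads is bounded at 3 counts, and such limits and intervals cover counting error only. Ezh2 measured 78.4 CPM in CD44- NK1.1-, 83.3 and 77.9 CPM in CD44+ NK1.1- and 40.4 CPM in CD44+ NK1.1+ cells of Ezh2-KO mice. The WT values in the same order were 109, 113 and 136, and 57.1 CPM. Over the subsets Ezh2 was lower in Ezh2-KO cells by a log2 fold change of -0.56 (SE 0.07, adjusted p 0.00402 in edgeR's quasi-likelihood test), so the transcript was reduced and not absent. NKT cell markers summed to 3368 to 8474 CPM, B cell markers to 0.899 to 4.78, myeloid and dendritic markers to 5.62 to 14.6, thymic epithelial markers to 2.15 to 5.79 and double-positive thymocyte markers to 13.6 to 78.8 CPM. None of these markers was at 0 in all libraries. Erythroid markers stood at 0.540 to 59.5 CPM in Ezh2-KO and 1.03 to 1.68 CPM in WT libraries. Immediate early genes summed to 4103 CPM in WT CD44+ NK1.1- replicate 1 and to 873 to 1789 CPM in the other libraries.

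Corrected for gene length, complex V (the ATP synthase) and complex III had the highest medians over all genes assigned to a complex. The median level over the 8 libraries was 156 RPKM (counts per kilobase of gene length, scaled to library size) for complex V and 157 RPKM for complex III. It was 113 RPKM for complex II, 90.9 RPKM for complex IV, 79.1 RPKM for complex I and 13.7 RPKM for the assembly factors. The median of complex IV includes its tissue-restricted isoforms, so its place in this order depends on them. Of its 19 genes, 7 were under 10 RPKM and 9 were at or above 100 RPKM. Atp5b, the catalytic beta subunit of the ATP synthase (chromosome 10, 128083307 to 128090388, GRCm38), led with 749 RPKM. Atp5g3, 1 of the genes for the membrane ring that proton flow turns, followed with 597 RPKM, Atp5e, the epsilon subunit, with 558 RPKM and Atp5a1, the alpha subunit, with 509 RPKM. In complex IV the ubiquitous forms led, with 500 RPKM for Cox4i1, 439 RPKM for Cox8a, 360 RPKM for Ndufa4 and 355 RPKM for Cox6a1. Uqcrh, the hinge protein of complex III, reached 320 RPKM. In complex I the highest was the accessory subunit Ndufa3 with 212 RPKM. All subunits of complex II but Sdhd lay close together, at 152 RPKM for the iron-sulfur subunit Sdhb, 124 RPKM for the flavoprotein Sdha and 102 RPKM for the membrane anchor Sdhc.

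Tissue-restricted isoforms were near or below the limit of detection. The filter on low counts removed 6 of the 99 genes. These were Cox4i2, the lung form of subunit 4, Cox8b, the heart and muscle form of subunit 8, Cox8c and Cox7b2, which are known from testis, Ndufa4l2, a hypoxia-induced relative of Ndufa4, and Uqcr11. Cox4i2 had 3 counts over all libraries. Uqcr11, a small subunit of complex III that is no tissue-restricted form, had 0. The annotation behind the counting is not given, so a count of 0 there cannot be told apart from a gene model that takes no reads. Cox6a2 and Cox7a1, the heart and muscle forms, and Cox6b2, the testis form, passed with 46, 75 and 126 counts in all. Cox6a1, the form found in other tissues, stood against this at 355 RPKM.

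**Figure D1:**
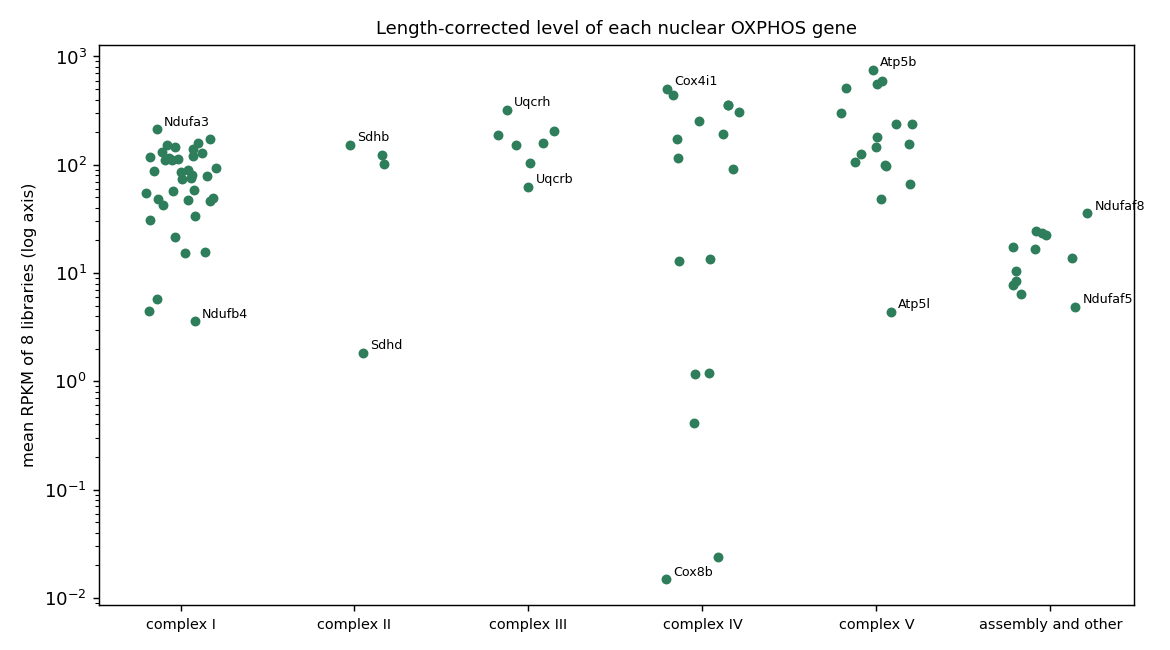
Mean level over the 8 libraries of the 95 nuclear oxidative phosphorylation genes at or above 0.01 RPKM, on a log axis, by complex. Each point is 1 gene, and the other 4 genes fall below the axis. Most subunits lie between 10 and 1000 RPKM, with tissue-restricted isoforms of complex IV and a few other subunits far below.

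Several subunits that every complex needs had unusually few reads. Sdhd, the second membrane anchor of complex II, averaged 1.82 RPKM with 407 counts. Even so, no stretch of 50 bases of its longest protein-coding transcript occurred in another gene of the GENCODE M21 annotation. In this search the longest protein-coding transcript stood for each member. Ndufb4 averaged 3.60 RPKM, Atp5l 4.37, Ndufa12 4.44 and Cox7c 13.4 RPKM, and these share sequence with other genes. The share of their 100-base stretches that also occurs in another annotated gene was 33.4% for Ndufb4, 69.0% for Atp5l, 17.7% for Ndufa12 and 19.7% for Cox7c. Cox7a2, with 12.9 RPKM, shared none. For Sdhd too, the gene model used in counting is unknown. Levels of the genes that share sequence are therefore uncertain, because reads can be split between copies or dropped. The 5 pseudogenes with the same symbol stems that were left out held 1677 to 5511 counts each over the 8 libraries.

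Ndufb4, an accessory subunit of complex I on chromosome 16, shows the extent of such sharing. Its relative Ndufb4c on chromosome 15 had 449 counts in all, Ndufb4 itself 284, and a further relative on chromosome 19, Ndufb4b, had 7524. The RefSeq table lists Ndufb4c as protein-coding and GENCODE M21 as a processed pseudogene. The coding sequence of Ndufb4 and the transcript of Ndufb4c had 0 differences over the 390 bases compared, and the first 120 are shown in lower case, with no capitals because no base differed.
Ndufb4: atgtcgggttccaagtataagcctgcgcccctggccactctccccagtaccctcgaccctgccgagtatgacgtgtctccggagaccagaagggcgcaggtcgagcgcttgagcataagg
Ndufb4c: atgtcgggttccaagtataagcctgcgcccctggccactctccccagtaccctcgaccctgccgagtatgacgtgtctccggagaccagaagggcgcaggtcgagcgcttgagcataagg
A read inside this stretch cannot be assigned to either gene by its sequence, so the values of both are uncertain.

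CD44+ NK1.1+ cells had less RNA of most nuclear oxidative phosphorylation genes than CD44+ NK1.1- cells, in both genotypes. Of the 93 genes tested, 19 were lower in CD44+ NK1.1+ cells and 0 were higher at an adjusted p under 0.05, with edgeR's quasi-likelihood test on the mean over both genotypes. Among all 13794 genes tested 16.1% were lower and 16.4% higher, 32.5% in either direction. The members' share of 20.4% called lower thus stood close to the background, while the absence of higher calls did not. The log2 fold change was below 0 for 78 of the 93, against 49.8% of all genes. The libraries of the subsets did not overlap for 54 that were lower (58.1%, against 23.7% of all genes) and for 6 that were higher (6.45%, against 24.4%). The median log2 fold change was -0.21, against 0.00 over all genes. The shift was small, and a test against a fold of 1.5 called 0 of the 93, where it called 7.52% of all genes. Replicates of 1 group also differed in this way, over the 81 members with at least 10 CPM on average. The median log2 of CD44+ NK1.1- replicate 1 over replicate 2 was -0.12 in Ezh2-KO, against 0.02 over all genes at this level. In WT it was -0.05, against -0.01. With 1 CD44+ NK1.1+ library per genotype, the part of such library-wide shifts in the stage result was not tested.

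The direction was shared by the genotypes. Fold changes of CD44+ NK1.1+ over CD44+ NK1.1- cells had a median log2 of -0.23 within Ezh2-KO and -0.18 within WT libraries. Both were below 0 for 74 of the 93 genes (79.6%), against 40.7% of all genes tested.

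**Figure D2:**
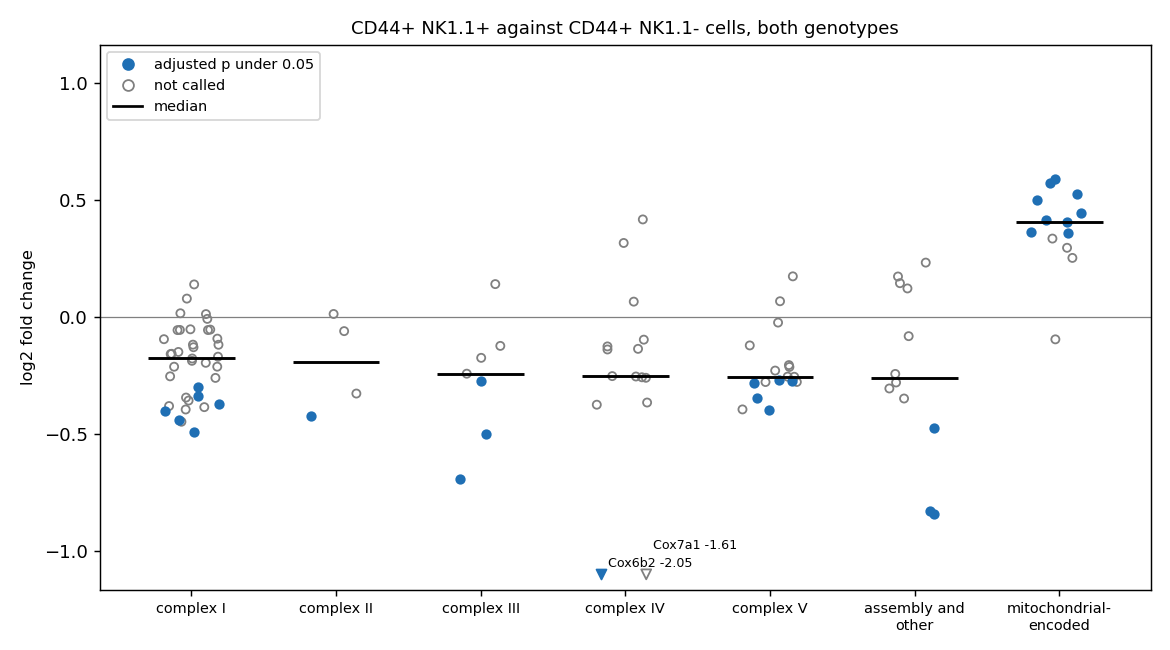
Log2 fold change of CD44+ NK1.1+ over CD44+ NK1.1- cells, as the mean over both genotypes, for each tested nuclear gene by complex and for the 13 mitochondrial-encoded subunits, with filled points for adjusted p under 0.05, black lines for medians and triangles for genes beyond the axis. The medians of all nuclear groups lie between -0.17 and -0.26, and that of the mitochondrial-encoded subunits at 0.41.

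Summed over genes, the levels of the ATP synthase stood lowest against their mean. The 17 genes of complex V summed to 4055 CPM in Ezh2-KO and 4048 CPM in WT CD44+ NK1.1+ cells, against 4936 and 5063 CPM in Ezh2-KO and 4633 and 4908 CPM in WT CD44+ NK1.1- cells. Relative to the mean of the 8 libraries these CD44+ NK1.1+ sums were 0.875 in Ezh2-KO and 0.873 in WT. In Ezh2-KO the value was 0.924 for complex I, 0.973 for complex II, 0.915 for complex III and 0.964 for complex IV. In WT it was 0.925 for complex I, 0.941 for complex II, 0.896 for complex III and 0.965 for complex IV. In CD44+ NK1.1- cells complex II stood at 1.065 and 1.055 in Ezh2-KO and 0.964 and 1.046 in WT. Complex IV stood there at 0.964 and 1.069 in Ezh2-KO and 1.02 and 1.009 in WT. The sums of complexes II and IV thus overlapped between these subsets. To the complex V sums of CD44+ NK1.1+ cells Atp5b and Atp5a1 gave 1172 and 1160 CPM in Ezh2-KO and 1177 and 1076 CPM in WT. The sums thus rest largely on these 2 genes. Over genes the median log2 fold change against CD44+ NK1.1- cells was -0.25 for complex IV and for complex V alike. All 99 genes together summed to 9918 CPM in Ezh2-KO and 9873 CPM in WT CD44+ NK1.1+ cells. CD44+ NK1.1- cells held 11220 and 11820 CPM in Ezh2-KO and 10890 and 11280 CPM in WT. In bulk RNA, fewer cells that express a gene and less RNA per cell cannot be told apart.

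**Figure D3:**
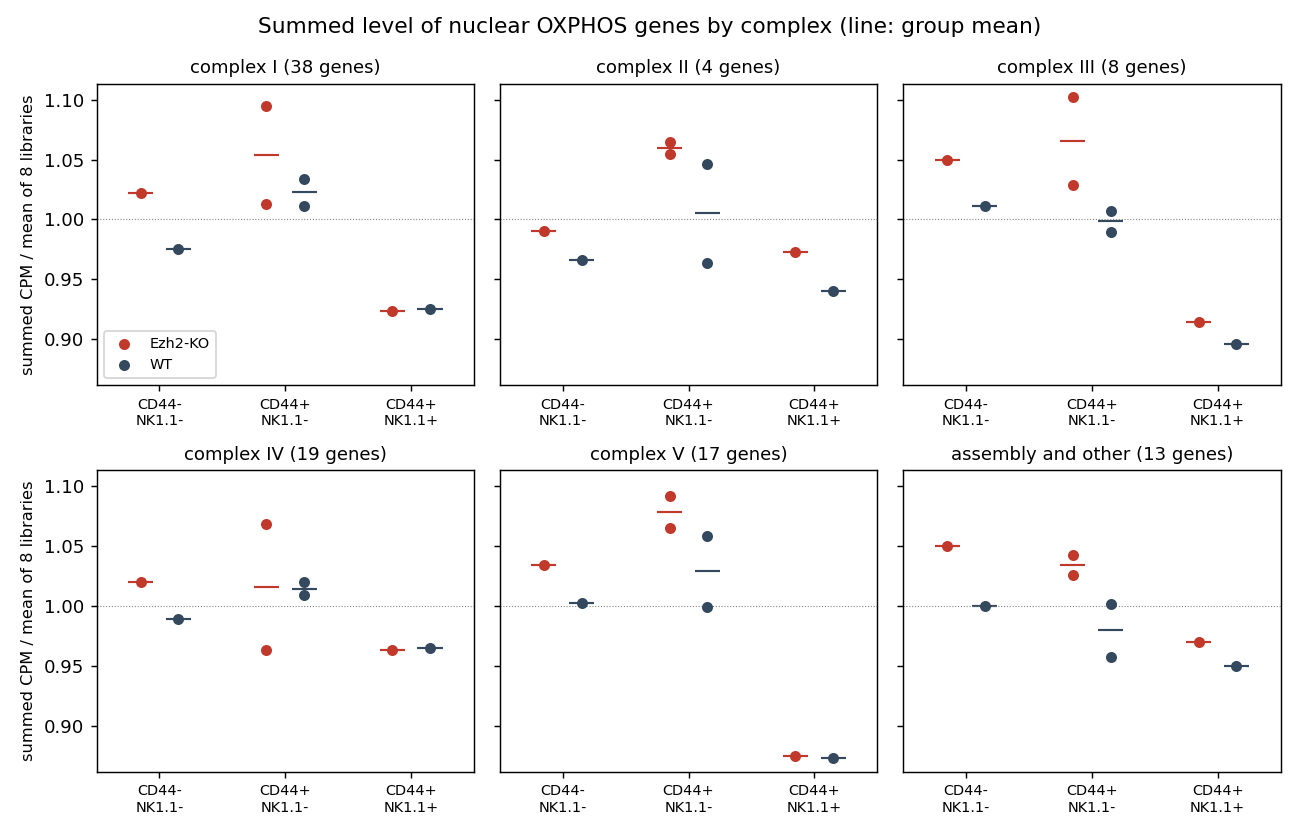
Summed CPM of the genes of each complex, divided by the mean over the 8 libraries, for each subset and genotype. Points are libraries, with Ezh2-KO left of WT, and lines are group means. In both genotypes the CD44+ NK1.1+ library lies below 1 in the panels of complexes I to V, at 0.875 for Ezh2-KO and 0.873 for WT in complex V. In complexes II and IV the libraries of CD44+ NK1.1+ and CD44+ NK1.1- cells overlap.

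In complex I 6 of 38 genes were lower in CD44+ NK1.1+ cells, where 16.1% of all genes tested were, so this count is near the background. Fold changes were below 0 for 34 of the 38, and the median log2 was -0.17. The lower genes were the flavin module subunit Ndufv2, the iron-sulfur subunit Ndufs8, and the accessory subunits Ndufc2, Ndufb6, Ndufb8 and Ndufs6. Ndufc2 (chromosome 7, 97400003 to 97407800) measured 59.6 CPM in Ezh2-KO and 59.2 CPM in WT CD44+ NK1.1+ cells, against 84.4 and 87.2 CPM in Ezh2-KO and 77.2 and 84.9 CPM in WT CD44+ NK1.1- cells. Both CD44+ NK1.1+ values lay below all 4 others, and the log2 fold change was -0.49 (SE 0.09, adjusted p 0.00986). Ndufv2 measured 89.5 CPM in Ezh2-KO and 87.5 CPM in WT CD44+ NK1.1+ cells, against 119 and 127 CPM in Ezh2-KO and 109 and 114 CPM in WT CD44+ NK1.1- cells, and its log2 fold change was -0.40 (adjusted p 0.0145). The groups were again separate. The other 4 fell by 0.30 (Ndufs8) to 0.44 (Ndufb6) on the log2 scale. The opposite-strand gene Smim27, which shares 39.0% of the exon bases of Ndufb6, stood at 3.29 to 5.03 CPM in all libraries, against 35.6 to 51.8 CPM for Ndufb6. Ndufs1, the largest subunit of complex I, had a log2 fold change of -0.15 and Ndufv1, which binds NADH, of -0.26 (adjusted p 0.0546), and neither passed.

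In complex II the subunits did not move alike. Sdhb (chromosome 4, 140961271 to 140979198), which carries the iron-sulfur clusters, measured 134 CPM in Ezh2-KO and 137 CPM in WT CD44+ NK1.1+ cells. In CD44+ NK1.1- cells it measured 173.9 and 173.5 CPM in Ezh2-KO and 188 and 191 CPM in WT. The log2 fold change was -0.42 (SE 0.08, adjusted p 0.0104), the 1 call among the 4 subunits, where 16.1% of all genes were lower. Sdha, the catalytic flavoprotein, measured 363 CPM in Ezh2-KO and 351 CPM in WT CD44+ NK1.1+ cells, against 383 and 361 CPM in Ezh2-KO and 315 and 357 CPM in WT CD44+ NK1.1- cells. Its values overlapped between the subsets, with a log2 fold change of 0.01. Sdhc stood at -0.06 and Sdhd, with few reads, at -0.33, and neither passed the test.

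Complex III held the call with the smallest p among the members. Uqcrq (chromosome 11, 53427922 to 53430831), a small subunit beside cytochrome b, measured 61.5 CPM in Ezh2-KO and 67.1 CPM in WT CD44+ NK1.1+ cells. CD44+ NK1.1- cells had 99.5 and 115 CPM in Ezh2-KO and 99.4 and 102 CPM in WT. The log2 fold change was -0.69 (SE 0.09, adjusted p 0.00427). Uqcr10, another small subunit, measured 66.9 CPM in Ezh2-KO and 73.2 CPM in WT CD44+ NK1.1+ cells, against 85.9 and 108 CPM in Ezh2-KO and 99.3 and 103 CPM in WT CD44+ NK1.1- cells (log2 fold change -0.50, adjusted p 0.0207). Uqcrfs1, the Rieske iron-sulfur protein, had a log2 fold change of -0.27 (adjusted p 0.0413). Thus 3 of 7 tested genes of complex III were lower, where 16.1% of all genes were. Fold changes were below 0 for 6 of the 7, and the median log2 was -0.24. Uqcrc1, a core scaffold protein, stood at -0.12 and did not pass.

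In complex IV 1 of 15 tested genes was called lower, where 16.1% of all genes were. Fold changes were nevertheless below 0 for 12 of the 15, and the median log2 was -0.25. The called gene was the low Cox6b2, with 7 counts in Ezh2-KO and 2 counts in WT CD44+ NK1.1+ cells, against 21 and 24 in Ezh2-KO and 17 and 10 in WT CD44+ NK1.1- cells (log2 fold change -2.05, adjusted p 0.0249). The abundant Cox4i1, the largest nuclear subunit of the complex, measured 339 CPM in Ezh2-KO and 310 CPM in WT CD44+ NK1.1+ cells, against 335 and 377 CPM in Ezh2-KO and 350 and 324 CPM in WT CD44+ NK1.1- cells. These groups overlapped, and the log2 fold change of -0.10 did not pass, nor did that of Cox8a (0.07). Cox7a2l, known as a factor that joins complexes III and IV, measured 239 CPM in Ezh2-KO and 234 CPM in WT CD44+ NK1.1+ cells. Its CD44+ NK1.1- values were 182 and 197 CPM in Ezh2-KO and 213 and 167 CPM in WT. These groups were separate and ran opposite to most members, but the log2 fold change of 0.32 did not pass (adjusted p 0.0844). Ndufa4 stood at -0.14.

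In complex V 5 of 17 genes were lower, where 16.1% of all genes were. Fold changes were below 0 for 15 of the 17, and the median log2 was -0.25. Atp5b measured 1172 CPM in Ezh2-KO and 1177 CPM in WT CD44+ NK1.1+ cells, against 1536 and 1518 CPM in Ezh2-KO and 1415 and 1504 CPM in WT CD44+ NK1.1- cells. The log2 fold change was -0.35 (adjusted p 0.0213), and the 2 lower values were nearly equal. Atp5g3 (chromosome 2, 73908447 to 73912464) measured 335 CPM in Ezh2-KO and 334 CPM in WT CD44+ NK1.1+ cells, against 438 and 453 CPM in Ezh2-KO and 411 and 462 CPM in WT CD44+ NK1.1- cells (log2 fold change -0.40, adjusted p 0.0191). The other calls were Atp5c1, the rotating gamma subunit (log2 fold change -0.28), Atp5pb, the peripheral stalk subunit b (-0.27), and Atp5o, which ties the stalk to the catalytic head (-0.27). In GENCODE M21 opposite-strand genes overlap 35.6% of the exon bases of Atp5o and 8.21% of those of Atp5pb, and 30.3% and 16.8% of their 100-base stretches occur in another gene entry, so the values of both are uncertain. Atp5a1, the partner of Atp5b in the head, had a log2 fold change of -0.21 that did not pass (adjusted p 0.0908).

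Of the 12 assembly factors tested, 3 were lower, all for complex I, where 16.1% of all genes were lower. Ndufaf2, which acts at a late step of complex I assembly, measured 7.54 CPM in Ezh2-KO and 7.91 CPM in WT CD44+ NK1.1+ cells, against 12.4 and 15.5 CPM in Ezh2-KO and 13.4 and 13.6 CPM in WT CD44+ NK1.1- cells (log2 fold change -0.83, SE 0.15, adjusted p 0.0098). An opposite-strand gene overlaps 65.7% of its exon bases in GENCODE M21, and the strand setting of the counting is not given, so its reads cannot be fully assigned. Ndufaf6 measured 3.87 CPM in Ezh2-KO and 4.73 CPM in WT CD44+ NK1.1+ cells, against 7.15 to 8.52 CPM in the CD44+ NK1.1- libraries (log2 fold change -0.84). Ndufaf4 fell by 0.48 on the log2 scale. Sdhaf2, which helps to attach flavin to Sdha, had a log2 fold change of 0.23 and did not pass (adjusted p 0.0635).

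Leaving out a CD44+ NK1.1- replicate leaves the spread to be estimated from the replicates of the other genotype only. Leaving out a CD44+ NK1.1+ library leaves the comparison to the other genotype alone. With such changes to the fit the count of 19 moved widely. Without WT CD44+ NK1.1- replicate 1 or 2 it was 61 or 58 (62.6% and 57.2% of all genes called), without Ezh2-KO CD44+ NK1.1- replicate 1 or 2 it was 3 or 1 (11.8% and 11%), and without the WT or the Ezh2-KO CD44+ NK1.1+ library it was 6 or 2 (18.9% and 10.3%). Members are short, with a median of 679 bases against 2671 for all genes tested. With an offset for gene length 10 were lower and 1 was higher, where 15.7% of all genes were lower and 14.7% higher. Scaling by library size alone gave 48 lower and 0 higher, where 23.9% of all genes were lower and 11.1% higher. The median of all genes was then -0.13 and that of the members -0.35. For a comparison within 1 genotype, the filter, the scaling and the spread still came from all 8 libraries. The same comparison made separately gave 6 lower members in Ezh2-KO, where 9.2% of all genes were lower, and 2 in WT, where 4.58% were.

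**Figure D4:**
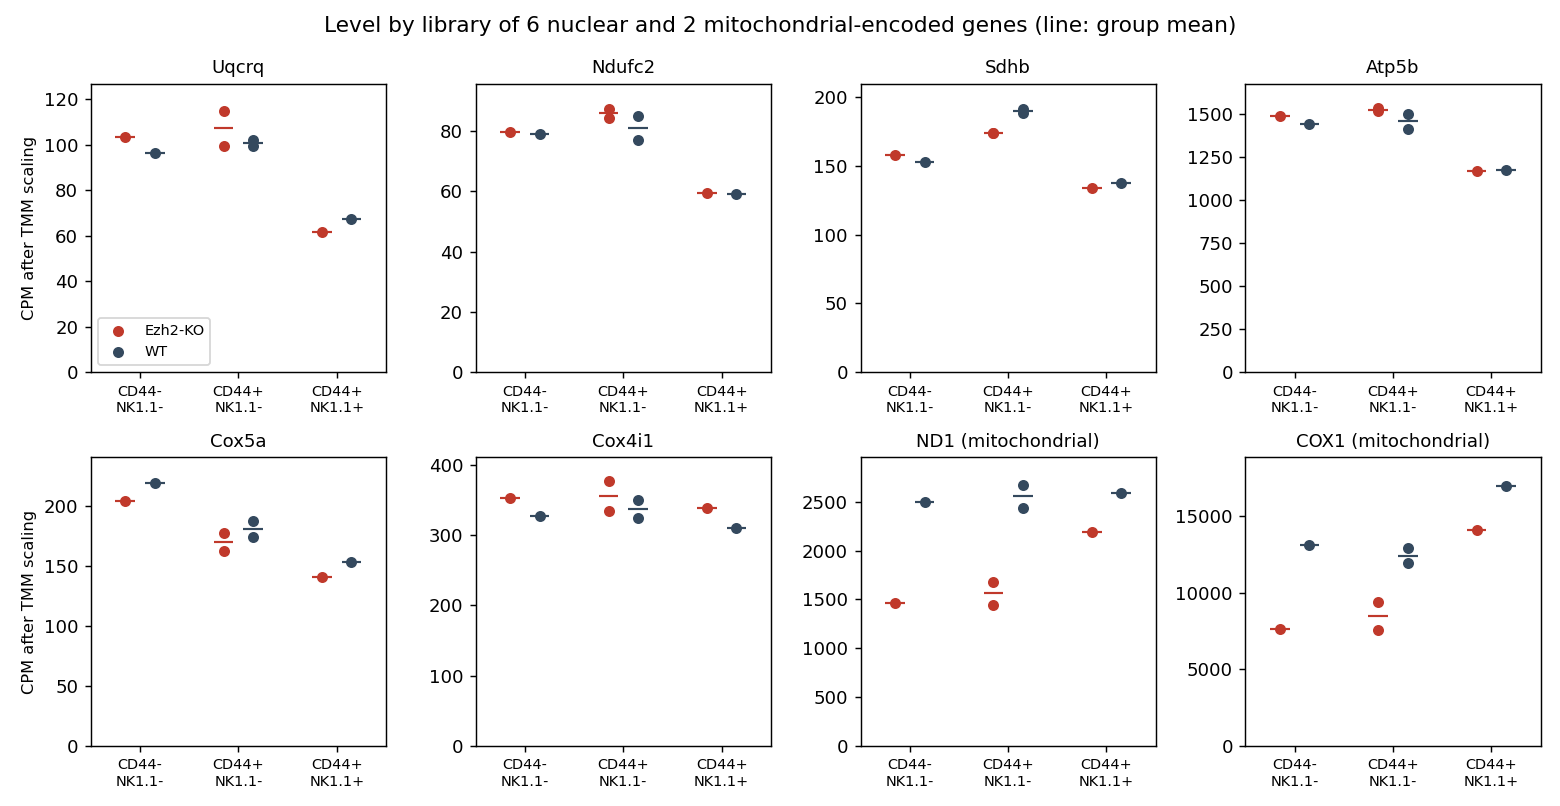
CPM after TMM scaling in each library for 6 nuclear and 2 mitochondrial-encoded genes, by subset, with Ezh2-KO left of WT. Points are libraries and lines are group means. Uqcrq, for example, lies at 61.5 CPM in Ezh2-KO and 67.1 CPM in WT CD44+ NK1.1+ cells, below the libraries of the other subsets, whereas mitochondrial COX1 is highest there.

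Against CD44- NK1.1- cells the CD44+ NK1.1+ cells gave a similar picture with fewer calls. In edgeR's test 10 of 93 genes were lower (10.8%, against 16.2% of all genes) and 0 were higher (against 16%), 32.2% of all genes being called in either direction. Fold changes were below 0 for 74 genes, against 50.9% of all genes, with a median log2 of -0.17, against -0.01. These calls were Uqcrq, Uqcr10, Ndufc2, Ndufv2, Atp5b, Cox6b2, Ndufaf2, Ndufaf4, Ndufaf6 and Cox5a, and all but Cox5a were also lower than in CD44+ NK1.1- cells. Both comparisons use the same CD44+ NK1.1+ libraries. The CD44+ NK1.1- libraries enter the comparison with CD44- NK1.1- cells only through the filter, the scaling and the estimate of the spread. Uqcrq measured 61.5 CPM in Ezh2-KO and 67.1 CPM in WT CD44+ NK1.1+ cells, against 104 CPM in Ezh2-KO and 96.3 CPM in WT CD44- NK1.1- cells (log2 fold change -0.64, adjusted p 0.00739). Without the Ezh2-KO or the WT library of CD44+ NK1.1+ cells the count was 0 or 3, and likewise 0 or 3 for CD44- NK1.1- cells (14.9% to 15.6% of all genes called). Without either Ezh2-KO CD44+ NK1.1- replicate it was 1 (15.7% and 15.9%), and without WT CD44+ NK1.1- replicate 1 or 2 it was 56 or 55 (63.1% and 62.9%).

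Cox5a, a matrix-facing subunit of complex IV, had its highest values at the first of the 3 subsets. It measured 204 CPM in CD44- NK1.1-, 163 and 178 CPM in CD44+ NK1.1- and 141 CPM in CD44+ NK1.1+ cells of Ezh2-KO mice. In WT mice it measured 219, then 174 and 187, then 153 CPM. Within each genotype the subsets were separate and in the same order. The log2 fold change of CD44+ NK1.1+ over CD44- NK1.1- cells was -0.52 (adjusted p 0.0112), and that over CD44+ NK1.1- cells, -0.25, did not pass (adjusted p 0.0685). In GENCODE M21 an opposite-strand gene covers 12.8% of the exon bases of Cox5a.

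Between CD44+ NK1.1- and CD44- NK1.1- cells no member was called in either direction, where 2.66% of all genes were. At an unadjusted p under 0.05 edgeR had 3 members, and DESeq2 and limma-voom also called 0. Fold changes were above 0 for 70 of 93 genes, against 50.4% of all genes, with a median log2 of 0.05. Sdhb measured 173.9 and 173.5 CPM in Ezh2-KO and 188 and 191 CPM in WT CD44+ NK1.1- cells, against 158 CPM in Ezh2-KO and 153 CPM in WT CD44- NK1.1- cells, and its log2 fold change of 0.23 did not pass. Without WT CD44+ NK1.1- replicate 1 or 2 the counts were 5 and 7 (25.2% and 31.9% of all genes called).

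Promoters of the members were searched for the motifs of known regulators of the pathway. NRF1, the ETS factor GABP and YY1 are described regulators of nuclear respiratory genes, and their motifs were searched on both strands as GCGCA followed by any base and GCGC, as CCGGAAG and as AANATGGCG. The windows ran from 250 bases before to 50 bases after the RefSeq gene start (GRCm38.p6), and none of the 3 strings contains another. Of 81 members with a window, 21 (25.9%) held the NRF1 string, against 11.5% of 10308 tested genes and 5.19% of all 27025 windows. The ETS string was in 22 (27.2%), against 20.1% and 9.93%, and the YY1 string in 12 (14.8%), against 5.79% and 2.76%. The 17 members with a window that were lower in CD44+ NK1.1+ than in CD44+ NK1.1- cells held at least 1 string in 52.9% of cases, and the other 61 tested members in 59.0%. The sets of tested genes and of all windows include the members, and the differences between these shares were not tested. A match describes these letters and no binding was measured.

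Of the 17 members with a window that were lower in CD44+ NK1.1+ than in CD44+ NK1.1- cells, 9 held such a string. Upstream sequences of 3 of them are given, with the string in capitals. Each of the 3 has a single window and holds the string within the 250 bases before the gene start. Genes with more than 1 window were not considered for printing. The sequences are read 5′ to 3′ on the strand of the gene. Ndufb6 (chr4:40279422-40279671, minus strand) holds the ETS string on the strand opposite to the one shown, and Ndufs6 (chr13:73328483-73328732, minus strand) the NRF1 string likewise, so their capitals are its reverse complement. Ndufaf4 (chr4:24897833-24898082, plus strand) holds the NRF1 string as read.
Ndufb6: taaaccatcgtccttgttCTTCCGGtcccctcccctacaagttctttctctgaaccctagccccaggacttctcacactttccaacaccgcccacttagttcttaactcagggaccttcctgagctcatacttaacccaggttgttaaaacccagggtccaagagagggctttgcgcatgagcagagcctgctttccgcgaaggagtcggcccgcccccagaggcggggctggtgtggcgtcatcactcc
Ndufaf4: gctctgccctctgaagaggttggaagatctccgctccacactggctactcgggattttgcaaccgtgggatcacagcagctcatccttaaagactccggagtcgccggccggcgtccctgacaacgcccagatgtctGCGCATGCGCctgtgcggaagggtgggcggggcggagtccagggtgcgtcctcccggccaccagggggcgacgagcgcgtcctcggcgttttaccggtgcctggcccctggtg
Ndufs6: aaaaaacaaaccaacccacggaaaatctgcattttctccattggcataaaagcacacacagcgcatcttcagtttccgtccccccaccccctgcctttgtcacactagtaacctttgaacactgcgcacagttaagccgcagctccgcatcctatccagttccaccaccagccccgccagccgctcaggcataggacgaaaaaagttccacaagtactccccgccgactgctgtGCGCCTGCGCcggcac
Log2 fold changes of these genes in CD44+ NK1.1+ over CD44+ NK1.1- cells were -0.44, -0.48 and -0.34 in the order shown.

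Few nuclear oxidative phosphorylation genes were called between Ezh2-KO and WT cells. With so few replicates, a lack of calls does not show a lack of change. In CD44+ NK1.1- cells, the subset with replicates, edgeR called 0 of 93 members in either direction, where 4.94% of all genes were called. At an unadjusted p under 0.05 there were 2, Cox6a2 and Atp5l, and DESeq2 and limma-voom also called 0. Fold changes were above 0 for 58 genes, against 49.1% of all genes, with a median log2 of 0.04. Among the 81 members with at least 10 CPM on average, log2 fold changes ran from -0.20 (Atp5k) to 0.35 (Sdhaf4). Ezh2-KO replicates themselves differed by a median of 0.12 on the log2 scale over these 81 genes and WT replicates by 0.07. Over all 9025 tested genes at this level the order was reversed, with 0.07 between Ezh2-KO and 0.18 between WT replicates. Without WT CD44+ NK1.1- replicate 1 or 2 the count was 4 (27.3% of all genes called) or 11 (42.0%).

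Over the 3 subsets, with genotype as an added effect, 1 member was higher and 0 were lower in Ezh2-KO cells. Of all genes 6.43% were higher and 4.89% lower, 11.3% in either direction. The gene was Cox6a2, the heart and muscle form of subunit 6a (chromosome 7, 128205435 to 128206366), at very low counts. It had 0 counts in CD44- NK1.1-, 13 and 17 in CD44+ NK1.1- and 12 in CD44+ NK1.1+ cells of Ezh2-KO mice. The WT counts in the same order were 0, then 2 and 0, then 2. Scaled to library totals times their TMM factors, the ratio of the counts in CD44+ NK1.1- cells was 15.8 (95% exact interval 4.0 to 136). Over all subsets, where 42 counts stood against 4, it was 10.9 (3.97 to 42.0). The test gave an adjusted p of 0.0256 over the subsets and 0.0708 in CD44+ NK1.1- cells. DESeq2 did not call it. The opposite-strand gene Itgad overlaps 10.3% of its exon bases and stood at 0.0477 to 0.754 CPM in Ezh2-KO and 0 to 0.386 CPM in WT libraries. Among members with at least 10 CPM, the range over the subsets was -0.12 (Atp5k) to 0.27 (Sdhaf4, adjusted p 0.131).

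**Figure D5:**
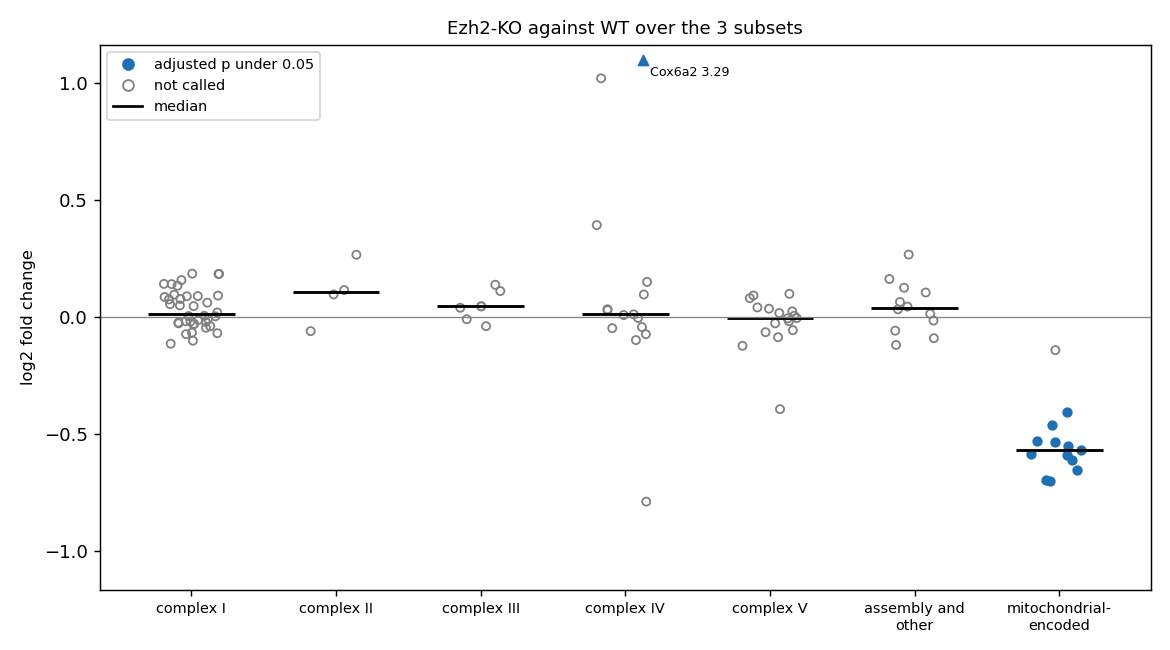
Log2 fold change of Ezh2-KO over WT cells over the 3 subsets for each tested nuclear gene by complex and for the 13 mitochondrial-encoded subunits, with filled points for adjusted p under 0.05, black lines for medians and a triangle for the gene beyond the axis. Most nuclear points lie close to 0, with 1 called, Cox6a2 at 3.29, whereas the median of the mitochondrial-encoded subunits is -0.57.

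The subsets with 1 library per genotype had no replicate check. In CD44+ NK1.1+ cells 2 members were more than 1.5-fold higher in Ezh2-KO than in WT, Cox6a2 and Cox6b2, and 0 were lower, where 11.2% of all genes were higher and 7.1% lower by this fold, 18.3% in all. In CD44- NK1.1- cells 1 member was higher, Cox6b2 with 31 counts in Ezh2-KO and 14 in WT, and 0 were lower, where 10.7% of all genes were higher and 6.04% lower, 16.8% in all. The genotype effect differed between subsets for 0 members in each of the 3 tests of the difference, also at an unadjusted p under 0.05. DESeq2 and limma-voom called 0 as well, and edgeR called 0%, 0.0217% and 0% of all genes.

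The 13 subunits encoded in mitochondrial DNA ran apart from the nuclear ones. Their sum was 26950 CPM in CD44- NK1.1-, 32240 and 26510 CPM in CD44+ NK1.1- and 44680 CPM in CD44+ NK1.1+ cells of Ezh2-KO mice. In WT mice it was 45890, then 44740 and 41690, then 52220 CPM. The ratio of this sum to the nuclear sum was 2.41, then 2.87 and 2.24, then 4.5 in Ezh2-KO libraries and 4.25, then 4.11 and 3.7, then 5.29 in WT libraries. Within each subset the Ezh2-KO libraries lay below the WT libraries, and within each genotype the CD44+ NK1.1+ library was the highest. COX1, the catalytic subunit of complex IV, measured 14110 CPM in Ezh2-KO and 16990 CPM in WT CD44+ NK1.1+ cells, against 9429 and 7593 CPM in Ezh2-KO and 12960 and 11920 CPM in WT CD44+ NK1.1- cells.

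Over the subsets 12 of the 13 were lower in Ezh2-KO cells, where 4.89% of all genes were, with a median log2 fold change of -0.57. Values ran from -0.70 (ND6) to -0.41 (COX3), and ND3, at -0.14, did not pass. In CD44+ NK1.1- cells alone 7 were lower, where 1.16% of all genes were. In CD44+ NK1.1+ over CD44+ NK1.1- cells 9 were higher and 0 lower, against 16.4% and 16.1% of all genes. The median was 0.41, with COX1 at 0.59 (adjusted p 0.0117). Under library size scaling 5 were higher (median 0.27), under cyclic loess 5, and against a fold of 1.5 there were 0. The comparison within WT was a contrast in the fit to all 8 libraries. Without the Ezh2-KO CD44+ NK1.1+ library, and in WT libraries alone, 0 passed in this stage comparison, and without Ezh2-KO CD44+ NK1.1- replicate 1 or 2 the count was 5 or 1. Without replicate 2 the count over the subsets was 3. In CD44+ NK1.1- cells alone the count was 0 without either Ezh2-KO replicate, 12 or 13 without either WT replicate, 12 in DESeq2 and 3 in limma-voom. Neighbouring mitochondrial genes overlap or lie end to end, and reads from nuclear copies were not separated here, so single values are less certain than the sum.

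Other gene groups tied to the pathway were read in the same comparison of CD44+ NK1.1+ with CD44+ NK1.1- cells. There 16.1% of all genes tested were lower and 16.4% higher, and several of the counts below lie near these shares. Cycs, the electron carrier cytochrome c, fell by 0.48 and Cyc1, the heme subunit of complex III, fell by 0.30 on the log2 scale. Of 33 tested assembly factors outside the symbol stems, 5 were lower, among them Cox10, a heme synthesis enzyme (log2 fold change -0.52), and 1 was higher, Surf1, a complex IV assembly factor (0.33). Of 77 mitochondrial ribosomal proteins, 26 were lower and 0 higher, with a median of -0.27. Of 16 enzymes of the tricarboxylic acid cycle 3 were lower, namely Suclg1, Fh1 and Mdh2, at -0.30 to -0.36. Of 13 tested regulators of mitochondrial genes, 2 were higher, Esrra (0.46) and Gabpb2 (0.38), and Nrf1, Gabpa, Yy1 and Tfam did not pass.

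In the same comparison, with 16.1% of all genes lower and 16.4% higher, glycolysis genes were divided. The glucose transporters Slc2a3 (0.98) and Slc2a1 (0.44) and the hexokinase Hk1 (0.32) were higher in CD44+ NK1.1+ cells. A further 7 of 17 were lower, among them Pgk1 (-0.70), Hk2 (-0.67) and Ldha (-0.59). Of 20 proliferation genes 19 were lower. These summed to 2655 CPM in Ezh2-KO and 3079 CPM in WT CD44+ NK1.1+ cells, against 5058 and 5057 CPM in Ezh2-KO and 4190 and 6077 CPM in WT CD44+ NK1.1- cells. Proliferation genes moved with the nuclear subunits, and their part in the result was not tested. Over the subsets few of these genes were called between Ezh2-KO and WT cells, with the glycolytic Tpi1 (0.36) and Pfkl (0.27) higher and Gabpb2 (-0.28) lower in Ezh2-KO. Of all genes 6.43% were higher and 4.89% lower there. Of the 77 mitochondrial ribosomal proteins 1 was higher, Mrps6 (0.33).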

How the data were processed

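RNA came from RNeasy Plus Mini columns, TruSeq RNA libraries were prepared from it and each RNA was run on 4 lanes, per the labels. The files as deposited hold unnormalized read counts by gene. The authors' reads were handled with CASAVA, Subread 1.4.3-p1 and featureCounts against mm10, per the submitters' processing notes. Which annotation and strand setting were used is not stated in these sources. The 8 library files equalled the table of the series. Of 27179 identifiers, 25275 matched a symbol in a RefSeq table of GRCm38.p6.

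The filter of filterByExpr over 6 groups left 13794 genes, 93 of the 99 members among them. Counts were scaled by TMM (CPM), and tested with the quasi-likelihood test of edgeR 4.0.16 in R 4.3.3 (robust=TRUE), with Benjamini-Hochberg adjustment over all tested genes. Called means an adjusted p under 0.05, and every adjusted p is from edgeR. A model of the 6 groups (2 residual degrees of freedom) gave the comparisons between subsets as means over both genotypes, the genotype effect in CD44+ NK1.1- cells and its differences. A model with subset and genotype as added effects (4 residual degrees of freedom) gave the genotype effect over subsets. Comparisons of single libraries have no test, and 1.5-fold marks them. Fold changes within a genotype used log2(CPM + 0.1). RPKM used the deposited gene length. Alternatives used DESeq2 1.42.0, limma 3.58.1, other scalings and filters, a length offset and each library left out. Those given for WT alone or Ezh2-KO alone were contrasts within 1 genotype in the fit to all 8 libraries.

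Members and lists were chosen with earlier results of these data known. Genes named are those called, the largest changes, the highest and lowest levels of each complex, those removed by the filter, a fixed set of core subunits, and from other lists those called or with the smallest p. A few further genes (Nrf1, Gabpa, Yy1, Tfam, Ndufb4b) were named after their values were seen.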

Additional observations from a re-analysis of the deposited data

How the results depend on the processing

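The stage comparisons with CD44+ NK1.1+ cells kept the direction of their median and not their counts. Over 22 alternatives the members' median log2 fold change of CD44+ NK1.1+ over CD44+ NK1.1- cells stayed between -0.35 (library size scaling) and -0.15 (gene length offset), and over CD44- NK1.1- cells between -0.31 and -0.09 under the same settings. Of the 19 calls, 14 remained in DESeq2, 18 in limma-voom and 19 without a filter or with cyclic loess. Called members in CD44+ NK1.1+ against CD44+ NK1.1- cells numbered 48 with library size scaling, 0 against a fold of 1.5, 11 with the gene length offset, 34 with subset and genotype as added effects (2 higher, 32 lower), 2 in WT alone, 6 in Ezh2-KO alone, and 1 to 61 with each library left out. Against CD44- NK1.1- cells they numbered 34, 0, 20 (3 higher, 17 lower), 0 and 3 with library size scaling, the fold of 1.5, added effects, WT alone and Ezh2-KO alone, and 0 to 56 with a library left out. Between CD44+ NK1.1- and CD44- NK1.1- cells leaving out a library gave 0 to 7. With library size scaling the calls over all genes in CD44+ NK1.1+ against CD44+ NK1.1- cells split into 11.1% higher and 23.9% lower. For Ezh2-KO against WT in CD44+ NK1.1- cells 1 member was called without a filter, where 4.54% of all genes were. Over the subsets the 1 call, Cox6a2, became 0 with at least 1 CPM in 2 libraries, DESeq2, cyclic loess, the fold of 1.5, the mean of the 3 genotype effects, and at least 10 CPM on average (a setting chosen after seeing the data), and was 0 to 3 with a library left out. The members' median for Ezh2-KO against WT in CD44+ NK1.1- cells ran from -0.02 (without Ezh2-KO replicate 2) to 0.09 (without Ezh2-KO replicate 1), so its sign is not set. The mitochondrial ATP8, in CD44+ NK1.1+ against CD44- NK1.1- cells, changed sign to -0.036 in WT alone, to -0.034 without the Ezh2-KO CD44+ NK1.1+ library and to -0.035 without the Ezh2-KO CD44- NK1.1- library, and reached 0.67 without the WT CD44+ NK1.1+ library. Differences of the genotype effect between subsets stayed at 0 called members in all alternatives run. The cause of these changes was not tested. No paired analysis was possible because the labels give no replicate numbers shared between groups. With 1 library of CD44+ NK1.1+ and of CD44- NK1.1- cells per genotype, the spread in those subsets is taken from the others, and low counts limit Cox6a2, Cox6b2 and Cox7a1.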
